A study of Mus musculus with 12 samples.

Results

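Resting Ikaros-deficient Treg were compared with stimulated WT Treg to ask at which open chromatin regions (OCRs) cells without Ikaros, before any stimulation, had the openness that WT cells had after it. The members were the OCRs with at least 10 CPM (reads on an OCR per 1000000 reads counted on all OCRs of a library) in all 3 libraries of either group, and 21911 of the 118680 deposited OCRs met this rule. Of these, 15923 met it in both groups, 4115 in ex vivo Ikzf1-cko Treg alone and 1873 in stimulated WT Treg alone. The rule used the levels of the 2 groups compared, so an OCR that met it through 1 group alone leaned towards that group by construction, and each count by gene list or location is also given for those that met it in both groups. Counts for single genes are not split in this way. WT Treg were YFP+ cells sorted from Foxp3-YFP-Cre mice, with spleen given as their source. Ikzf1-cko Treg were sorted alike from the Ikzf1-fl-Foxp3-YFP-Cre strain, in which Cre driven from the Foxp3 locus deletes the floxed Ikzf1 allele in cells that express Foxp3. Both genotypes carried the YFP-Cre. Cells were used directly (ex vivo) or after 4 hr on plate-bound anti-CD3 and anti-CD28, with 3 libraries of 100000 cells in each of the 4 groups. The comparison crosses genotype with stimulation and changes both at once, so a difference cannot be assigned to either alone, and the ex vivo WT and stimulated Ikzf1-cko libraries are given beside it. The labels number the libraries of a group and do not say whether they came from separate mice, so p-values measure the spread between these libraries. Fewer open cells and less openness per cell cannot be told apart in such bulk libraries.

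Treg are CD4 T cells that express Foxp3 and restrain immune responses. Their antigen receptor and CD28 switch on AP-1, NF-kB and NFAT factors within hours of engagement, and chromatin then opens at genes for cytokines, receptors and feedback inhibitors. Ikaros, encoded by Ikzf1, is a zinc finger protein that binds sites with a GGGAA core and acts largely as a repressor in T cells, in part through the NuRD remodelling complex. Notch signals reach DNA through Rbpj and a Mastermind-like coactivator such as Maml3, and the catenin Ctnnd1 binds cadherins.

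Sequences of 5 OCRs are shown because they stand for the outcomes described below: an intron of Rel that stimulation opened in WT and that was partly open in resting Ikzf1-cko Treg, the Tcf7 start site that stimulation opened in WT with no difference found between the genotypes at rest, and 3 OCRs at Notch and catenin genes that were more open in resting Ikzf1-cko than in stimulated WT Treg. Each is the central 300 bases of the OCR on the plus strand of mm9, with TGACTCA (AP-1) and GGGAA (Ikaros core) in capitals where either occurs on either strand.
Rel intron, chr11:23654316-23654615: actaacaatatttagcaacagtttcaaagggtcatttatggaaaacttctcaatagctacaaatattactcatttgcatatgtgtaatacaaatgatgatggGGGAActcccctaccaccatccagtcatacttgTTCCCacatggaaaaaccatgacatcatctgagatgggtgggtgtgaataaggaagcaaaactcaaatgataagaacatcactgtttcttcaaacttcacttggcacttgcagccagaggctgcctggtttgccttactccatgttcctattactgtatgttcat
Tcf7 start site, chr11:52096511-52096810: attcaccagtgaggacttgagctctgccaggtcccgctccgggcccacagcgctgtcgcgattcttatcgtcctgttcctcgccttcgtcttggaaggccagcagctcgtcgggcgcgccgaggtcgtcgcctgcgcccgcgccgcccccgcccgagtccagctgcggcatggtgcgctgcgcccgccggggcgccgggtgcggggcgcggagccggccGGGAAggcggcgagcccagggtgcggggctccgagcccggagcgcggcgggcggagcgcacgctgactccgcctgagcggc
Ctnnd1 start site, chr2:84490760-84491059: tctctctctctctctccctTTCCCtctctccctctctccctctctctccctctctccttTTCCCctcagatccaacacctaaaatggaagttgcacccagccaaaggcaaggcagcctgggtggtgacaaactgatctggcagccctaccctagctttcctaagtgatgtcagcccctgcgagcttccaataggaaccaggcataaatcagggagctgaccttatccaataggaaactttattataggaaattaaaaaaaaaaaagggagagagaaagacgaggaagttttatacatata
Rbpj intron, chr5:53985474-53985773: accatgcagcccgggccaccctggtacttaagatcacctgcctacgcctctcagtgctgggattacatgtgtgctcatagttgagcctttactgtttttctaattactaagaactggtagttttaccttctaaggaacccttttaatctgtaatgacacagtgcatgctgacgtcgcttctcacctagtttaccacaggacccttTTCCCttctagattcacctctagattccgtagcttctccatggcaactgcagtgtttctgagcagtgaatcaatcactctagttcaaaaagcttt
Maml3 intron, chr3:51852047-51852346: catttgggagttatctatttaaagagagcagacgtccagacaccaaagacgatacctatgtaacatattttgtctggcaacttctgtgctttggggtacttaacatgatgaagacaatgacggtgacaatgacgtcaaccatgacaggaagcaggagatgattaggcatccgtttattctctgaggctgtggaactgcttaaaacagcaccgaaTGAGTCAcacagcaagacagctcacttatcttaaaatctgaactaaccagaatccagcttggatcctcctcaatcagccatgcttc
The Maml3 window had 1 match to the AP-1 sequence, and the other 4 had none. The Rel and Ctnnd1 windows had 2 matches each to GGGAA, the Rbpj and Tcf7 windows 1 each and the Maml3 window none. GGGAA matched 59.6% of equally long windows over all tested OCRs, so such matches set no OCR apart.

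The libraries held between 11698967 and 15355521 counted reads in ex vivo Ikzf1-cko Treg and between 4808916 and 6047073 in stimulated WT Treg, so that low levels were less precise in stimulated WT. Openness is given in FPKM, CPM divided by the length of the OCR in kilobases. With library totals as the scaling, weak OCRs were higher in stimulated WT and strong OCRs lower. The median log2 fold change of ex vivo Ikzf1-cko over stimulated WT was -2.27 in the weakest decile of the 69957 tested OCRs and 0.40 in the strongest decile, -0.15 over all of them and 0.33 over the members. Scaling on the strongest OCRs brought the members' median to 0.01, so counts are given under both scalings. The part of read depth and background in these shifts was not tested. Over the start sites of the 6 Treg and T cell markers (Foxp3, Il2ra, Ctla4, Ikzf2, Cd3e, Cd4) the summed level was 173 to 185 FPKM in ex vivo Ikzf1-cko and 128 to 154 FPKM in stimulated WT libraries, and none of the 6 was at 0. Over the 4 of 5 CD8 T and NK cell markers with an OCR at the start site it was 24.1 to 30.1 FPKM and 36.8 to 41.5 FPKM. For all these markers, an OCR within 1 kb of the start site was counted as at it. It was 22.4 to 27.6 and 22.0 to 26.7 FPKM for 2 of 5 B cell markers, 18.6 to 20.9 and 12.5 to 12.7 FPKM for 1 of 5 myeloid markers, and 29.5 to 30.7 and 31.7 to 36.7 FPKM for 3 of 4 erythroid markers. The part of other cells in the results was not tested.

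Each member was placed in 1 of 4 classes by the edgeR fit to all tested OCRs. It was higher or lower in ex vivo Ikzf1-cko at an adjusted p under 0.05 and a log2 fold change beyond 1 or -1, within 2-fold where the 95% interval of the log2 fold change lay between -1 and 1, and otherwise undecided. Most members were within 2-fold, 16515 of 21911, against 54.1% of all tested OCRs. Another 1999 were higher in ex vivo Ikzf1-cko (9.12%, against 4.14% of all tested), 742 were lower (3.39%, against 23.8%) and 2655 were undecided. Since the rule used these levels, nothing is read from these shares. Among the 15923 members that passed in both groups, 13815 were within 2-fold, 836 were higher, 66 were lower and 1206 were undecided. Scaled on strong OCRs, the split of all members turned to 665 higher and 1265 lower (1.27% and 30.2% of all tested), and that of the members passing in both groups to 226 and 218. Without replicate 2 of the stimulated WT libraries, 1257 members were lower under library totals.

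Resting Ikzf1-cko and stimulated WT had the lowest median rank correlation of any pair of groups, 0.81 against 0.855 for ex vivo WT with stimulated WT, although the ranges over libraries overlapped. The rank correlation of log2 CPM over the 21911 members ranged from 0.771 to 0.852 between ex vivo Ikzf1-cko and stimulated WT libraries, from 0.821 to 0.868 between ex vivo WT and stimulated WT, and from 0.921 to 0.948 between the ex vivo groups. Between stimulated Ikzf1-cko and stimulated WT it was 0.857 to 0.918, and within the stimulated WT group 0.953 to 0.967. Depth differs between these libraries and enters all of these values. The level rule also used the ex vivo Ikzf1-cko and stimulated WT levels. It adds OCRs that differ between these 2 groups and so can lower their correlation. The order of the pairs is therefore a description.

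OCRs over start sites were mostly within 2-fold between resting Ikzf1-cko and stimulated WT Treg, and fewer of those in introns and between genes were. Of 10834 members that overlapped a start site, 9808 were within 2-fold, 169 were higher in ex vivo Ikzf1-cko and 257 lower. OCRs beside a start site that did not overlap it were counted as exon, intron or between genes. Of 4794 members in introns, 2694 were within 2-fold, 969 higher and 137 lower, and of 5036 between genes, 3182, 715 and 257. When scaled on strong OCRs, 37 start sites were higher and 543 lower, against 333 and 229 introns. Among members passing in both groups, 9228 of 9720 start sites were within 2-fold, 117 higher and 22 lower, against 1760, 350 and 19 of 2535 introns and 2237, 311 and 10 of 2936 OCRs between genes. On strong OCRs those start sites gave 19 higher and 138 lower, and those introns 103 and 36.

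Activation loci were first taken from the other 6 libraries, as OCRs called higher in stimulated Ikzf1-cko than in ex vivo WT Treg. The levels of ex vivo Ikzf1-cko and stimulated WT did not enter this contrast, but the level rule that picked members among these loci used both. This choice mixes genotype with stimulation in the same way. It called 668 tested OCRs opened (0.955%). Over all 668, ex vivo Ikzf1-cko was within 2-fold of stimulated WT at 315, higher at 69, lower at 88 and undecided at 196. The higher and lower shares were 10.3% and 13.2%, against 4.14% and 23.8% of all tested, and the median log2 fold change was 0.03. Scaled on strong OCRs, 31 of the 668 were higher and 152 lower. Of the 668, 98 were members, and their split below also reflects the level rule. At these 98, ex vivo Ikzf1-cko Treg were within 2-fold of stimulated WT at 36, higher at 32, lower at 4 and undecided at 26, with a median log2 fold change of 0.74 against 0.33 over all members. Scaled on strong OCRs, the same 98 split into 48 within 2-fold, 19 higher, 10 lower and 21 undecided. Of the 31 that passed the level rule in both groups, 22 were within 2-fold, 6 higher, 0 lower (5 at an unadjusted p under 0.05 alone) and 3 undecided, and scaled on strong OCRs 22, 1, 0 and 8. Ex vivo Ikzf1-cko exceeded ex vivo WT at 83 of the 98 (adjusted p under 0.05 alone, edgeR) and stimulated WT exceeded ex vivo WT at 38. The ex vivo WT libraries also chose these OCRs, so those counts are a description.

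At some of these opened loci, resting Ikzf1-cko Treg were at or above the stimulated WT level. At the start site of Cox7a1 (chr7:30968821-30969564), which encodes a subunit of cytochrome c oxidase, levels were 13.7, 13.4 and 13.1 FPKM in ex vivo WT, 26.0, 29.7 and 25.6 in ex vivo Ikzf1-cko, and 16.9, 19.2 and 22.9 in stimulated WT. All 3 ex vivo Ikzf1-cko libraries were above all 3 stimulated WT libraries, by a log2 fold change of 0.48 ± 0.13 (SE, n = 3 and 3, adjusted p = 0.0017, edgeR), within 2-fold. At the start site of Lrrc16a (chr13:24372229-24373505) they were 9.49, 7.47 and 7.56 FPKM in ex vivo WT, 20.8, 21.9 and 22.1 in ex vivo Ikzf1-cko and 9.32, 9.30 and 7.98 in stimulated WT. There stimulated WT was not separated from ex vivo WT, and resting Ikzf1-cko Treg were 2.42-fold above stimulated WT (log2 fold change 1.27 ± 0.12, adjusted p = 3.5e-10, edgeR), which became undecided at 0.96 when scaled on strong OCRs. These loci were chosen after their values were seen.

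At the 4 opened members that were lower under library totals, stimulated WT was above ex vivo WT, and no difference was found between the genotypes at rest (adjusted p from 0.29 to 0.91). The largest of these differences was in an exon of A230052G05Rik (chr8:73387666-73388182), with 8.19, 7.43 and 7.65 FPKM in ex vivo WT, 5.67, 5.62 and 7.44 in ex vivo Ikzf1-cko, 22.7, 30.7 and 21.3 in stimulated WT, and 17.6, 16.9 and 20.4 in stimulated Ikzf1-cko. Stimulated WT was 4.03-fold above ex vivo Ikzf1-cko (log2 fold change -2.01 ± 0.18, adjusted p = 1.1e-10). Over the start site of Zbtb12 (chr17:35030873-35031912), which encodes a zinc finger protein, the level was 9.20, 9.36 and 11.5 FPKM in ex vivo Ikzf1-cko and 25.8, 28.5 and 23.0 in stimulated WT, a log2 fold change of -1.37 ± 0.13 (adjusted p = 2.4e-10). An exon of the remodeller gene Chd3 and an intron of Vav2, a guanine nucleotide exchange factor of receptor signalling, had log2 fold changes of -1.15 and -1.18, the latter -0.97 and no longer past 2-fold without replicate 2 of stimulated WT. Without replicate 3 of stimulated WT, 7 opened members were lower. All 4 OCRs were members through stimulated WT alone and so leaned that way by the rule.

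Loci that closed in the other 6 libraries numbered 2328 of all tested OCRs (3.33%). Over all 2328, resting Ikzf1-cko Treg were within 2-fold of stimulated WT at 1058, higher at 133, lower at 425 and undecided at 712. The higher and lower shares were 5.71% and 18.3%, against 4.14% and 23.8% of all tested, and the median log2 fold change was -0.34. Scaled on strong OCRs, 46 were higher and 732 lower. The level rule, which used the levels compared, left 383 members. Of these 383, 210 were within 2-fold, 75 higher (more open), 19 lower and 79 undecided, and this split also reflects the rule. Scaled on strong OCRs, the same 383 gave 218, 31, 58 and 76. Of the 176 passing in both groups, 131 were within 2-fold, 28 higher and 0 lower (34 at an unadjusted p under 0.05 alone). Without replicate 3 of ex vivo Ikzf1-cko the number of closed members that were lower was 35, and without replicate 2 of stimulated WT it was 43.

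**Figure D1:**
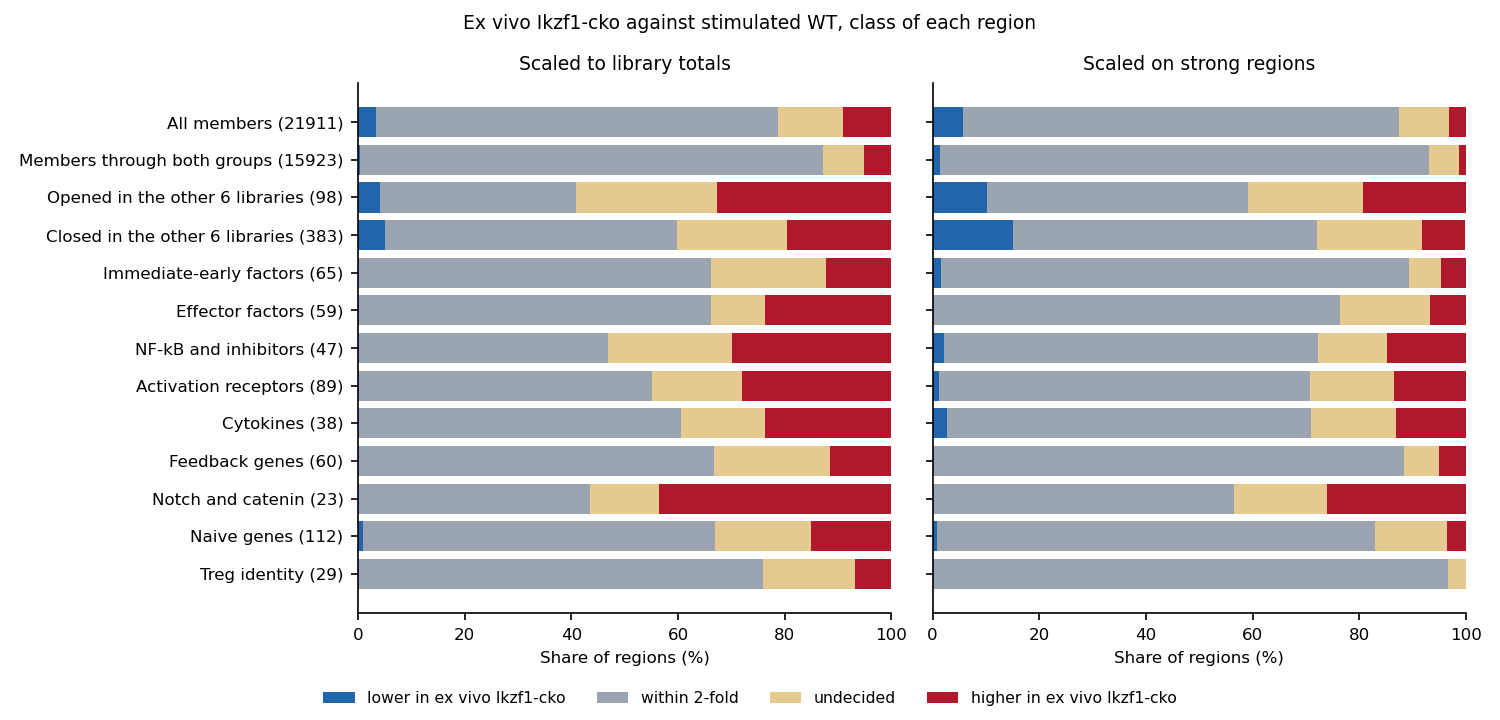
Share of OCRs (%, x axis) in each class of the comparison of ex vivo Ikzf1-cko with stimulated WT, for all members, members passing in both groups, loci chosen in the other 6 libraries and gene lists (y axis, number of OCRs in brackets), scaled to library totals (left) and on strong OCRs (right). Blue (lower in ex vivo Ikzf1-cko) is absent from the 6 activation lists on the left, and red (higher) is smaller on the right for each row. The opened and closed loci shown are the members among them, and like the gene lists they include members that passed through 1 group alone.

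Activation genes were then taken as 6 lists of 107 genes, with each member assigned to the nearest start site within 100 kb. At their 358 members, resting Ikzf1-cko Treg were within 2-fold of stimulated WT at 216, higher at 77, lower at 0 and undecided at 65 (edgeR, adjusted p under 0.05 and 2-fold). At an adjusted p under 0.05 alone, 267 were higher (24.9% of all tested OCRs were) and 23 lower (37.1%), and at an unadjusted p 25 were lower. DESeq2 and limma also gave 0 lower past 2-fold. Scaling on strong OCRs gave 276 within 2-fold (50.8% of all tested and 81.6% of members), 34 higher, 4 lower (at Jund, Lif, Rela and Il12rb2) and 44 undecided. The median log2 fold change was 0.60 against 0.33 over all members and ranged from -0.84 to 2.14. Of the 77 higher OCRs, 48 were members through ex vivo Ikzf1-cko alone and so leaned that way by the rule. Of the 229 that passed in both groups, 162 were within 2-fold, 29 higher and 38 undecided, and scaled on strong OCRs 205, 10 higher, 1 lower and 13 undecided.

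Having the level of stimulated WT cells did not mean that WT cells had opened there. Stimulated WT was above ex vivo WT at only 24 of the 358 (6.7%, adjusted p under 0.05 alone, edgeR, against 26.9% of all tested OCRs and 13.7% of members) and below it at 198 (55.3%, against 20.7% and 45.0%). Scaled on strong OCRs it was above at 53 (14.8%, against 36.6% of all tested and 26.4% of members) and below at 132 (36.9%, against 11.5% and 27.6%). With the 2-fold threshold as well, 1 of the 358 rose, in Rel (17.7% of all tested OCRs did), and 24 fell (2.32%). Ex vivo Ikzf1-cko was above ex vivo WT at 128 of the 358 (35.8%, against 8.78% of all tested and 20.5% of members) and below at 10 (12.7% of all tested and 8.6% of members). With strong OCRs as the scaling these were 89 and 21 (5.13% and 17.9% of all tested, 11.6% and 14.2% of members).

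**Figure D2:**
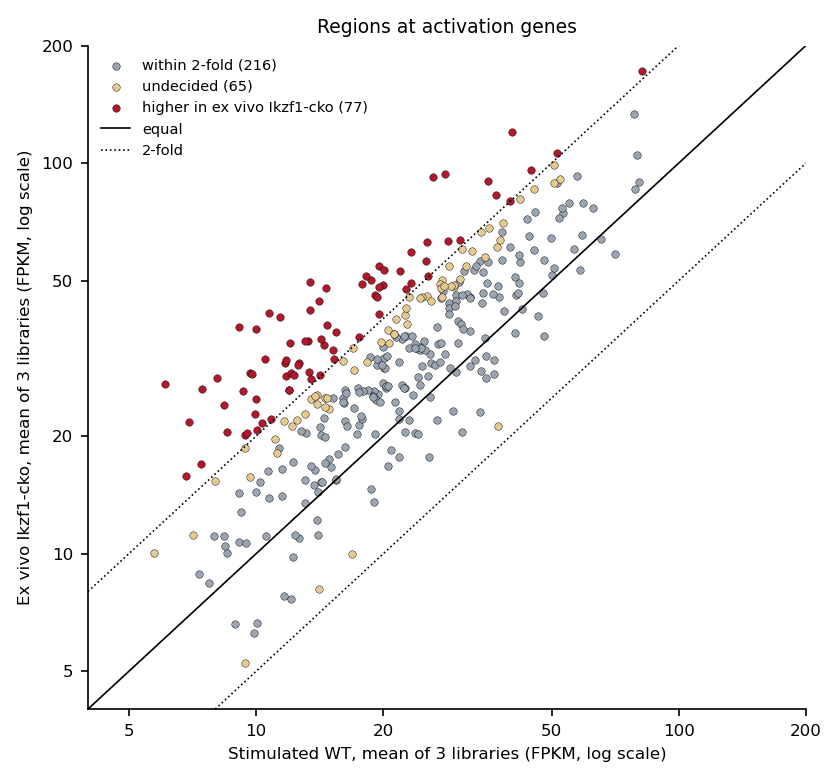
Mean openness of the 358 OCRs at activation genes in stimulated WT (x axis) and ex vivo Ikzf1-cko (y axis), each over 3 libraries in FPKM scaled to library totals, on log axes, coloured by class. Points lie mostly above the line of equality, with 77 called higher in ex vivo Ikzf1-cko, and no point called lower.

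At the 24 OCRs that stimulation opened in WT, resting Ikzf1-cko Treg had mostly not moved. They were above ex vivo WT at 3 of the 24, in Rel, near Socs3 and at the start site of Nfil3. They were below stimulated WT at 14 of 24 at an adjusted p under 0.05 alone, and 21 of the 24 lay within 2-fold and 3 were undecided, since the rises in WT were themselves small. With strong OCRs as the scaling, 53 OCRs had opened in WT, and resting Ikzf1-cko Treg were above ex vivo WT at 8 of these, below stimulated WT at 41 at an adjusted p under 0.05 alone (52.2% of all tested) and lower past both thresholds at 3, at Jund, Lif and Rela. Because the stimulated WT libraries enter both comparisons, choosing OCRs that rose there pulls the second comparison down, and these counts are a description. The OCRs named in the next paragraphs as opened by stimulation, and those named as most open in ex vivo Ikzf1-cko, were ordered by these values after they were seen.

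Resting Ikzf1-cko Treg stayed below stimulated WT at OCRs of the AP-1, NF-kB and cytokine genes Jund, Rela and Lif. An OCR 2.02 kb from Jund (chr8:73219281-73219617), an AP-1 subunit, had 18.8, 18.1 and 20 FPKM in ex vivo WT, 18.2, 22.9 and 22.6 in ex vivo Ikzf1-cko, 33.4, 39.6 and 38.9 in stimulated WT, and 35.1, 34.1 and 36.7 in stimulated Ikzf1-cko. Both ex vivo groups overlapped each other and lay below both stimulated groups, and the log2 fold change of ex vivo Ikzf1-cko over stimulated WT was -0.82 ± 0.15 (adjusted p = 1.9e-05). At the start site of Lif (chr11:4166254-4167173), a cytokine gene, the levels were 8.36, 6.77 and 7.21 FPKM in ex vivo WT, 6.65, 9.08 and 8.55 in ex vivo Ikzf1-cko and 12, 17.7 and 12.4 in stimulated WT (-0.80 ± 0.16, adjusted p = 7.9e-05). An OCR 10.8 kb from Rela (chr19:5648568-5649772), the transactivating NF-kB subunit, had 9.67, 11.8 and 8.58 FPKM in ex vivo Ikzf1-cko and 18.4, 17.6 and 14.5 in stimulated WT (-0.75 ± 0.13, adjusted p = 1.1e-05). These 3 were undecided under library totals and lower by more than 2-fold when scaled on strong OCRs (-1.13, -1.12 and -1.07). The Jund and Lif OCRs were members through stimulated WT alone and so leaned that way by the rule. Rela was a member through both groups.

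Start sites of other signalling genes differed less. Stat5b (chr11:100711423-100712141), which transmits IL-2 receptor signals, had 20.6, 19.9 and 19.6 FPKM in ex vivo WT, 20.5, 21.0 and 20.1 in ex vivo Ikzf1-cko and 29.4, 35.6 and 27.2 in stimulated WT. The 2 ex vivo groups overlapped, and the log2 fold change to stimulated WT was -0.58 ± 0.12 (adjusted p = 0.00015). Nfkbid (chr7:31206526-31207543), an atypical NF-kB inhibitor, had 34.1, 36.2 and 37.9 FPKM in ex vivo Ikzf1-cko and 44.8, 55.6 and 43.7 in stimulated WT (-0.42 ± 0.093, adjusted p = 0.00024). Tbx21, which encodes T-bet, and an OCR next to the phosphatase gene Dusp2 had log2 fold changes of -0.66 and -0.55, and Bcl3, another atypical NF-kB inhibitor, of -0.31. All 5 were within 2-fold under library totals. Tbx21 was a member through stimulated WT alone, and the others through both groups. Scaled on strong OCRs, Tbx21 (-0.98), Stat5b (-0.90) and Dusp2 (-0.86) became undecided, and Nfkbid (-0.74) and Bcl3 (-0.63) stayed within 2-fold.

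Rel was the single activation OCR called open past both thresholds in stimulated WT that resting Ikzf1-cko Treg came within 2-fold of, and Socs3 was close to it. The Rel intron (chr11:23653935-23654995), 16 kb inside the gene of an NF-kB subunit that T cells induce on activation, had 5.44, 6.87 and 5.26 FPKM in ex vivo WT, 8.90, 9.52 and 11 in ex vivo Ikzf1-cko, 11.1, 13.4 and 12.2 in stimulated WT, and 11.4, 13.8 and 15.5 in stimulated Ikzf1-cko. The ex vivo Ikzf1-cko libraries were above all ex vivo WT and just below all stimulated WT libraries. The log2 fold change over stimulated WT was -0.32 ± 0.15 (adjusted p = 0.063, within 2-fold), where that over ex vivo WT was 0.73 ± 0.16 (adjusted p = 0.0016). Scaled on strong OCRs, Rel was below stimulated WT by -0.64 (adjusted p = 0.0005, edgeR), still within 2-fold, and above ex vivo WT by 0.63. This OCR was a member through stimulated WT alone. Near Socs3 (chr11:117824567-117825206), a feedback inhibitor of cytokine receptors, ex vivo Ikzf1-cko had 18.2, 22.9 and 24.8 FPKM, ex vivo WT 16.8, 15.9 and 16.4, and stimulated WT 28.4, 28.5 and 23.4, so that the first and last overlapped (-0.30 ± 0.13, adjusted p = 0.045). The log2 fold change between the genotypes at rest was 0.42 there (adjusted p = 0.026), and this call was lost when scaled on strong OCRs (0.32, adjusted p = 0.089). On that scaling the Socs3 OCR was below stimulated WT by -0.62 (adjusted p = 0.00019, edgeR), within 2-fold.

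**Figure D3:**
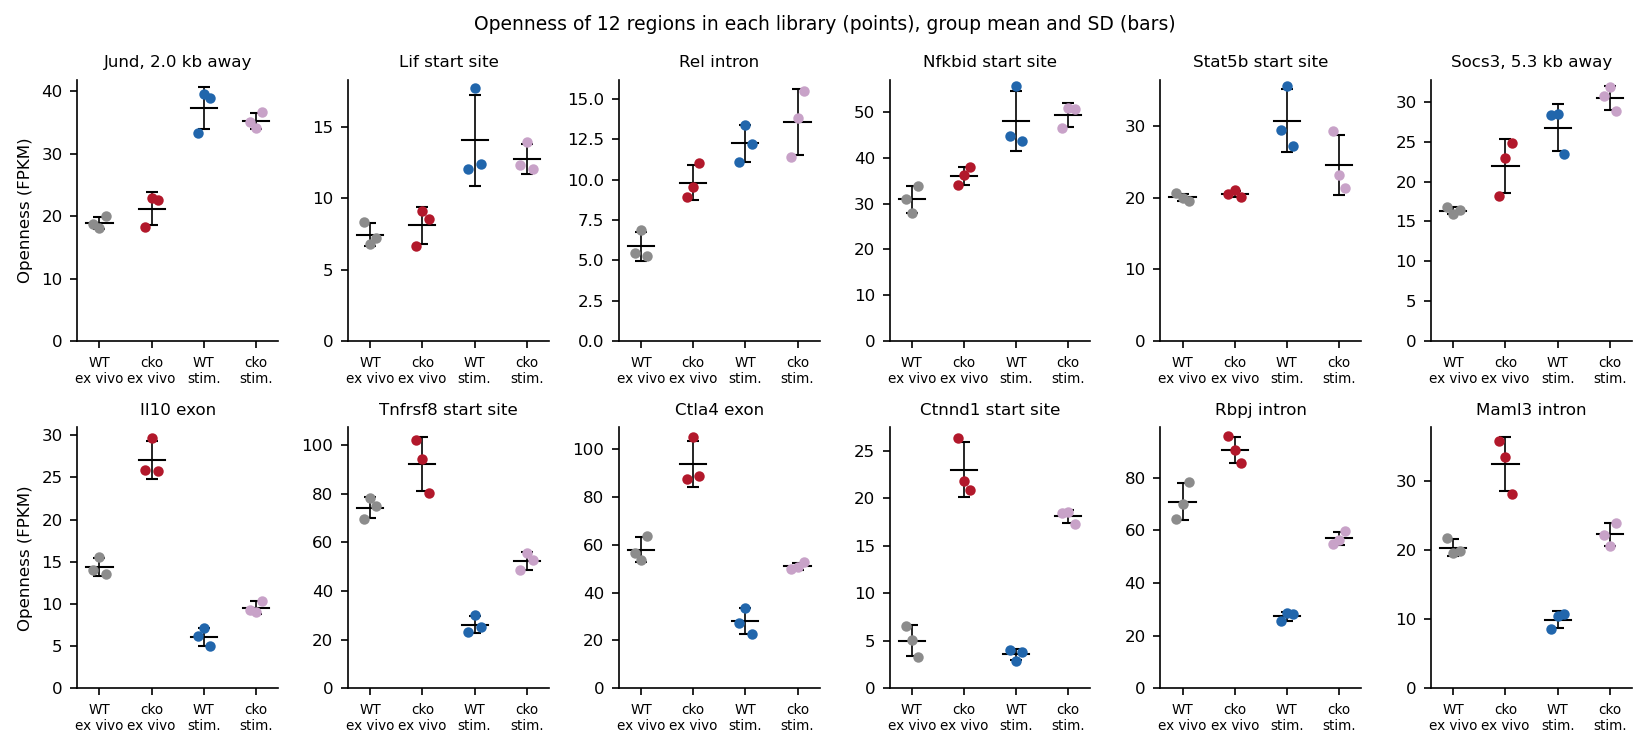
Openness (FPKM, y axis) of 12 OCRs in each library of both genotypes, ex vivo and after stimulation. Points are libraries and bars give the mean and SD of 3. In the upper row (Jund, Lif, Rel, Nfkbid, Stat5b, Socs3) stimulated WT had a higher mean than ex vivo Ikzf1-cko, and in the lower row (Il10, Tnfrsf8, Ctla4, Ctnnd1, Rbpj, Maml3) ex vivo Ikzf1-cko had the highest of all 4.

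Receptor genes had OCRs more open in resting Ikzf1-cko than in stimulated WT Treg. Of 89 members at activation receptors, 25 were higher (28.1%, against 4.14% of all tested and 9.12% of all members), 49 within 2-fold and 15 undecided, with a median log2 fold change of 0.70. With strong OCRs as the scaling 12 were higher and 1 lower (1.27% and 30.2% of all tested). Of the 56 that passed in both groups 13 were higher (23.2%, against 5.25% of all members that did), and on strong OCRs 6 (10.7%, against 1.42%). The same shares over all tested OCRs and members apply to the lists that follow, and the difference between lists was not tested. The start site of Tnfrsf8, the gene of the TNF receptor family member CD30 (chr4:144904827-144905391), had 69.5, 78.1 and 75.1 FPKM in ex vivo WT, 102, 94.4 and 80.2 in ex vivo Ikzf1-cko, 23.1, 30.1 and 25.4 in stimulated WT, and 48.6, 55.8 and 52.9 in stimulated Ikzf1-cko. Stimulated WT was lowest of the 4 groups, and the log2 fold change was 1.82 ± 0.11 (adjusted p = 7.3e-14). The log2 fold change of stimulated over ex vivo WT was -1.51, and that between the genotypes at rest 0.31 ± 0.092 (adjusted p = 0.014).

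Other receptor OCRs were also highest in ex vivo Ikzf1-cko and lowest in stimulated WT. In an exon of Ctla4 (chr1:60970020-60970573), the inhibitory receptor of Treg, ex vivo Ikzf1-cko had 87.6, 105 and 88.7 FPKM, ex vivo WT 56.6, 53.6 and 63.6, and stimulated WT 27.5, 33.6 and 22.9 (log2 fold change over stimulated WT 1.74 ± 0.11, adjusted p = 2.2e-13). An OCR 36.5 kb from the inhibitory receptor gene Tigit (chr16:43700754-43701100) had 42.6, 41.9 and 29.6 FPKM in ex vivo Ikzf1-cko and 8.10, 13.2 and 5.99 in stimulated WT (2.06 ± 0.21, adjusted p = 2.0e-09). The Ctla4 OCR was a member through both groups, and the Tigit OCR through ex vivo Ikzf1-cko alone, so that it leaned that way by the rule. An intron of Tnfrsf1b, the gene of TNF receptor 2, had a log2 fold change of 1.58. By gene, 4 of 9 members at Tigit, 4 of 8 at Ctla4, 3 of 6 at Tnfrsf8, 3 of 8 at Tnfrsf1b, 3 of 8 at Pdcd1 and 2 of 4 at Tnfrsf9 were higher. The 3 members at Icos had log2 fold changes from 0.31 to 1.23, with 1 higher. The 3 at Il12rb2, a chain of the IL-12 receptor, lay on the other side, from -0.84 to -0.43, and 1 was lower past 2-fold when scaled on strong OCRs.

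Higher OCRs of the NF-kB list lay at Nfkb1, Tnfaip3 and Nfkbia. Of 47 members, 14 were higher (29.8%, against 4.14% of all tested and 9.12% of members), 22 within 2-fold and 11 undecided (median 0.71), and scaled on strong OCRs 7 were higher and 1 lower. Of the 27 that passed in both groups 4 were higher, and on strong OCRs 1 was higher and 1 lower. The 14 were 8 at Nfkb1, 5 at Tnfaip3 and 1 at Nfkbia, and Nfkb2, Rel, Rela, Relb, Nfkbib, Nfkbid, Nfkbie, Nfkbiz and Bcl3 had none. Nfkb1, which encodes the NF-kB subunit precursor p105, had 13 members, of which 8 were higher, 4 undecided and 1 within 2-fold. In its intron at chr3:135273124-135273560 the level was 26.1, 27.3 and 33.8 FPKM in ex vivo Ikzf1-cko, 15.8, 18.2 and 13 in ex vivo WT and 6.81, 11.7 and 10.5 in stimulated WT (log2 fold change over stimulated WT 1.59 ± 0.20, adjusted p = 8.6e-08). At Tnfaip3, an NF-kB inhibitor, 5 of 12 members were higher, led by an OCR 8.95 kb away (chr10:18718960-18719700) with 49.0, 48.7 and 45.7 FPKM against 11.2, 17.8 and 14.9. There the ex vivo groups were close, at 37.1, 40.6 and 44.6 FPKM in ex vivo WT. The Nfkb1 intron OCR and this Tnfaip3 OCR were members through ex vivo Ikzf1-cko alone and so leaned that way by the rule.

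Among 38 members at cytokine and TNF ligand genes, 9 were higher (23.7%, against 4.14% of all tested and 9.12% of members), 23 within 2-fold and 6 undecided (median 0.57), and Il10 held 6 of the 9, with Xcl1 at 2 and Ifng at 1. On strong OCRs 5 were higher and 1 lower, and of the 22 that passed in both groups 2 were higher, or 1 on strong OCRs. Il10 encodes the suppressive cytokine of effector Treg, and 6 of its 7 members were higher, with the other undecided. In its exon at chr1:132919094-132919890 the level was 25.9, 29.7 and 25.7 FPKM in ex vivo Ikzf1-cko, 14.0, 15.6 and 13.6 in ex vivo WT, 6.22, 7.11 and 4.96 in stimulated WT and 9.25, 9.07 and 10.4 in stimulated Ikzf1-cko. The log2 fold change over stimulated WT was 2.14 ± 0.16 (adjusted p = 1.7e-12), and the 3 libraries of each group did not overlap with those of any other. This OCR was a member through ex vivo Ikzf1-cko alone and so leaned that way by the rule. No member was nearest to Il3, Il21, Il4, Il13, Il5, Csf2, Ebi3, Ccl3 or Ccl4, so those loci are not covered.

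Effector and T helper factors had 14 of 59 members higher (23.7%, against 4.14% of all tested and 9.12% of members), 39 within 2-fold and 6 undecided (median 0.60). The strong-OCR scaling gave 4 higher. Of the 31 that passed in both groups 4 were higher, and on strong OCRs 0 (edgeR, 16 at an unadjusted p under 0.05 alone). The 14 were led by Rora at 7 of its 11 members and Ahr at 2 of 3. In an intron of Rora (chr9:69152071-69152915), an orphan nuclear receptor of effector Treg, ex vivo Ikzf1-cko had 37.5, 41.7 and 33.6 FPKM, ex vivo WT 24.6, 23.5 and 22.6, and stimulated WT 9.20, 9.51 and 11.3 (1.92 ± 0.13, adjusted p = 3.2e-13). An OCR 27.7 kb from Ahr (chr12:36247418-36248079), the aryl hydrocarbon receptor, had 45.4, 43.7 and 35.0 FPKM against 8.24, 13 and 11 (1.96 ± 0.15, adjusted p = 4.4e-12). These Rora and Ahr OCRs were members through ex vivo Ikzf1-cko alone and so leaned that way by the rule. Immediate-early factors had 8 of 65 higher (12.3%), 43 within 2-fold and 14 undecided (median 0.49), and feedback and cytokine signal genes 7 of 60 (11.7%), 40 and 13 (median 0.46). Both shares were near the 9.12% of all members, and on strong OCRs 3 of each list were higher. Of those that passed in both groups, 1 of 46 immediate-early and 5 of 47 feedback OCRs were higher, and on strong OCRs 0 (edgeR, 17 at an unadjusted p under 0.05 alone) and 2.

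At the Notch and catenin genes that the study names, 10 of 23 members were higher (43.5%, against 4.14% of all tested and 9.12% of members), 10 within 2-fold and 3 undecided, with a median log2 fold change of 0.92, and scaled on strong OCRs 6 were higher. Only 1 of the 10 had passed the level rule in both groups, where 1 of 11 was higher under either scaling (9.09%, against 5.25% and 1.42% of all members that did), so that the other higher OCRs leaned that way by the rule. The list came from the study's own results on these cells and is not independent evidence of a direction. The Ctnnd1 start site (chr2:84490559-84491260) had 6.58, 5.10 and 3.31 FPKM in ex vivo WT, 26.3, 21.8 and 20.9 in ex vivo Ikzf1-cko, 4.00, 2.86 and 3.85 in stimulated WT and 18.4, 18.6 and 17.3 in stimulated Ikzf1-cko. The groups separated by genotype, both WT groups being low, with a log2 fold change over stimulated WT of 2.69 ± 0.21 (adjusted p = 4.5e-12). This OCR was a member through ex vivo Ikzf1-cko alone and was also among the loci opened in the other 6 libraries.

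The Rbpj and Maml3 introns separated by genotype and by stimulation. The Rbpj intron (chr5:53985353-53985893) had 95.7, 90.7 and 85.8 FPKM in ex vivo Ikzf1-cko, 64.4, 70.0 and 78.3 in ex vivo WT, 25.4, 28.7 and 28.1 in stimulated WT and 54.9, 56.4 and 59.6 in stimulated Ikzf1-cko (log2 fold change over stimulated WT 1.73 ± 0.10, adjusted p = 3.7e-14). The Rbpj start site was closer, at 63.1, 69.6 and 65.4 FPKM against 38.1, 37.1 and 28.4 in stimulated WT (0.92 ± 0.11). The Maml3 intron (chr3:51851908-51852484) had 35.7, 33.5 and 28.1 FPKM in ex vivo Ikzf1-cko, 21.7, 19.5 and 19.8 in ex vivo WT and 8.60, 10.4 and 10.8 in stimulated WT (1.72 ± 0.16, adjusted p = 1.4e-10). The Rbpj intron OCR was a member through both groups, and the Maml3 intron OCR through ex vivo Ikzf1-cko alone. At the Maml3 start site the difference was 0.41 ± 0.16 (adjusted p = 0.026), within 2-fold.

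At Notch2, whose product is a Notch receptor, the start site was within 2-fold and an intron was higher in ex vivo Ikzf1-cko. The start site had 32.1, 36.5 and 32.8 FPKM in ex vivo Ikzf1-cko and 27.7, 29.4 and 32.7 in stimulated WT (log2 fold change 0.18 ± 0.087, adjusted p = 0.069, and -0.14 scaled on strong OCRs). The intron at chr3:97831068-97831720 had 23.6, 25.9 and 25 FPKM against 9.37, 10.9 and 8.28 (1.38 ± 0.16, adjusted p = 1.1e-08). The intron OCR was a member through ex vivo Ikzf1-cko alone.

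Ifng and Il2, the cytokine genes repressed by Ikaros in conventional T cells, differed from each other at their start sites, neither of which was a member. The Ifng start site (chr10:117877677-117878516) had 3.89, 4.10 and 3.88 FPKM in ex vivo WT, 9.54, 8.05 and 10.1 in ex vivo Ikzf1-cko, 5.51, 6.09 and 5.2 in stimulated WT and 8.91, 8.60 and 8.72 in stimulated Ikzf1-cko. Resting Ikzf1-cko Treg were above stimulated WT in all 3 libraries by 0.71 ± 0.18 on the log2 scale (adjusted p = 0.00098, undecided against 2-fold), and 0.40 scaled on strong OCRs. At the Il2 start site the levels were 5.17, 11.1 and 8.17 FPKM in ex vivo WT, 8.75, 7.36 and 6.27 in ex vivo Ikzf1-cko and 7.52, 7.74 and 5.37 in stimulated WT, and all groups overlapped (log2 fold change 0.12 ± 0.20, adjusted p = 0.64, and -0.20 scaled on strong OCRs). The members that responded most to stimulation in WT near these genes, 20.2 kb from Ifng (chr10:117898316-117898940) and at chr3:37071768-37072736 in the Il2 locus, where the nearest start site is that of Gm12532, had log2 fold changes of 1.05 and 1.11. Both fell below 2-fold when scaled on strong OCRs (0.73 and 0.79), without 1 stimulated WT library (0.96 without replicate 3 and 0.90 without replicate 1) and with counts thinned to the smallest library (0.93 and 0.92). In both, stimulated WT was below ex vivo WT. Each was a member through ex vivo Ikzf1-cko alone.

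Start sites of Il2ra, Irf4 and Bcl6 were within 2-fold. Il2ra, the IL-2 receptor alpha chain, had 23.6, 23.4 and 22.6 FPKM in ex vivo Ikzf1-cko and 21.2, 25 and 19.0 in stimulated WT, which overlapped (0.09 ± 0.12, adjusted p = 0.52, and -0.23 scaled on strong OCRs). Irf4, a factor of effector Treg, had 29.5, 32.1 and 29.2 FPKM against 23.9, 24.4 and 25.8 (0.30 ± 0.090, adjusted p = 0.0051, and -0.02 scaled on strong OCRs). Bcl6, the repressor of follicular T cells, had 44.0, 46.2 and 44.0 FPKM against 30, 31.4 and 30.4 (0.55 ± 0.10, adjusted p = 2.2e-05). In the OCRs around them that responded most in WT, an Il2ra intron, an OCR 6.31 kb from Irf4 and a Bcl6 intron, the log2 fold changes were 0.87, 0.70 and 0.89, all undecided.

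Tcf7, the TCF-1 gene of resting T cells, went the other way. Its start site (chr11:52095840-52097481), which also covers the start of A630014C17Rik, had 9.49, 10.6 and 11.1 FPKM in ex vivo WT, 10.5, 12 and 10.5 in ex vivo Ikzf1-cko, 11.5, 19.7 and 19.6 in stimulated WT and 13.3, 13 and 15.4 in stimulated Ikzf1-cko. The ex vivo groups overlapped and 1 stimulated WT library lay within their range, and the log2 fold change of ex vivo Ikzf1-cko over stimulated WT was -0.61 ± 0.14 (adjusted p = 0.00028).

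Genes of the naive and resting state had 74 of 112 members within 2-fold, 17 higher (15.2%, against 4.14% of all tested and 9.12% of members), 1 lower (at Cxcr5, -1.03) and 20 undecided (median 0.59). On strong OCRs 92 were within 2-fold, 4 higher and 1 lower. Of the 67 that passed in both groups 8 were higher, and on strong OCRs 0 (edgeR, 29 at an unadjusted p under 0.05 alone). At a Satb1 intron (chr17:51902453-51903429), a chromatin organiser of T cells, levels were 27.4, 31.6 and 31.4 FPKM in ex vivo WT, 22.7, 19.0 and 17.2 in ex vivo Ikzf1-cko and 13.2, 17.0 and 16.6 in stimulated WT. Ex vivo Ikzf1-cko lay between the WT groups without overlap, with a log2 fold change of -0.62 against ex vivo WT (adjusted p = 0.00016) and of 0.35 ± 0.13 over stimulated WT (adjusted p = 0.022, within 2-fold).

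A Bach2 intron (chr4:32474499-32476034), in the gene of a repressor of effector genes, was likewise between the WT groups, with 16.8, 14.0 and 17.1 FPKM in ex vivo WT, 12.1, 13.1 and 12.7 in ex vivo Ikzf1-cko and 8.18, 11.9 and 9.88 in stimulated WT (0.34 ± 0.13 over stimulated WT, adjusted p = 0.021). Ccr7 and Foxo1 OCRs showed no difference between the genotypes at rest under library totals (adjusted p = 0.11 and 0.40, edgeR). A Ccr7 intron (chr11:99013458-99014227), the lymph node homing receptor, had 19.2, 27.4 and 25.5 FPKM in ex vivo WT. It had 16.6, 21.7 and 21.5 in ex vivo Ikzf1-cko and 10.5, 16.4 and 12.7 in stimulated WT (0.59 ± 0.16 over stimulated WT, adjusted p = 0.0019). Scaled on strong OCRs, its log2 fold change between the genotypes at rest was -0.40 (adjusted p = 0.032, edgeR). An OCR 5.15 kb from Foxo1 (chr3:52066270-52067112), which keeps naive T cells quiescent, had 15.0, 12.9 and 14.7 FPKM in ex vivo Ikzf1-cko, 13.9, 14.5 and 18.6 in ex vivo WT and 5.69, 6.07 and 5.92 in stimulated WT. The ex vivo groups overlapped and both were above stimulated WT (1.27 ± 0.17, adjusted p = 3.0e-07, and 0.95 when scaled on strong OCRs). The Ccr7 and Foxo1 OCRs were members through ex vivo Ikzf1-cko alone.

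The 12 OCRs over or nearest to the start sites of Treg identity genes were within 2-fold at 10 and undecided at 2 (Cd28 and Capg). Their log2 fold changes ran from -0.28 to 0.93, and from -0.60 to 0.62 scaled on strong OCRs. The lowest was Foxp3 (9.96, 8.89 and 11.6 FPKM against 13.6, 9.78 and 13.5, adjusted p = 0.21), which was not a member, and the highest was Capg, an actin-capping protein (89.9, 88.7 and 73.1 FPKM against 39.5, 48.9 and 43.8, adjusted p = 1.1e-09). Of all 29 members at these genes, 22 were within 2-fold, 2 higher (1 at Cd5 and 1 at Lrrc32, 6.9%) and 5 undecided, and of the 18 that passed in both groups 1 was higher. On strong OCRs 0 of the 29 were higher (edgeR, 15 at an unadjusted p under 0.05 alone). At the genes that the study lists as more expressed in ex vivo Ikzf1-cko Treg, 55 of 80 members were within 2-fold, 18 higher (22.5%) and 7 undecided (median 0.57), a list chosen on cells of the same kind and not independent evidence of a direction. The strong-OCR scaling gave 7 higher, and of the 46 that passed in both groups 4 were higher under library totals.

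The AP-1 sequence TGACTCA was found in a larger share of the OCRs more open in resting Ikzf1-cko than of those more open in stimulated WT Treg. These classes hold many members that passed the level rule only through the group where they are high. Among 10835 members away from start sites and at least 300 bases long, it was in the central 300 bases of 29.3% of the 605 that were higher under both scalings, of 13.2% of the 6624 within 2-fold and of 5.59% of the 465 lower under both scalings. Over all 64245 tested OCRs of that length the share was 10.6%, and at the 76 higher OCRs of activation genes 28.9%. Among members that passed in both groups, start sites included, it was in 24.8% of the 226 higher under both scalings, in 1.94% of the 206 lower on strong OCRs and in 7.64% of all 15883, and start-site members as a whole held it in 2.67%. The Ikaros core GGGAA was in 59.3%, 59.9% and 60.9% of the same 3 classes. The STAT sequence TTCNNNGAA was in 12.4%, 10.6% and 7.96%, and the TCF sequence CTTTGAT in 6.78%, 5.92% and 5.38%. The forkhead sequence GTAAACA, the E-box CACGTG, the NR4A sequence AAAGGTCA and the IRF motif were in 4.13%, 5.12%, 1.32% and 5.79% of the higher and 4.97%, 6.96%, 2.58% and 5.69% of the OCRs within 2-fold. The median GC content of the 3 classes was 47.0%, 50.0% and 53.3%, and its part in these shares was not tested.

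**Figure D4:**
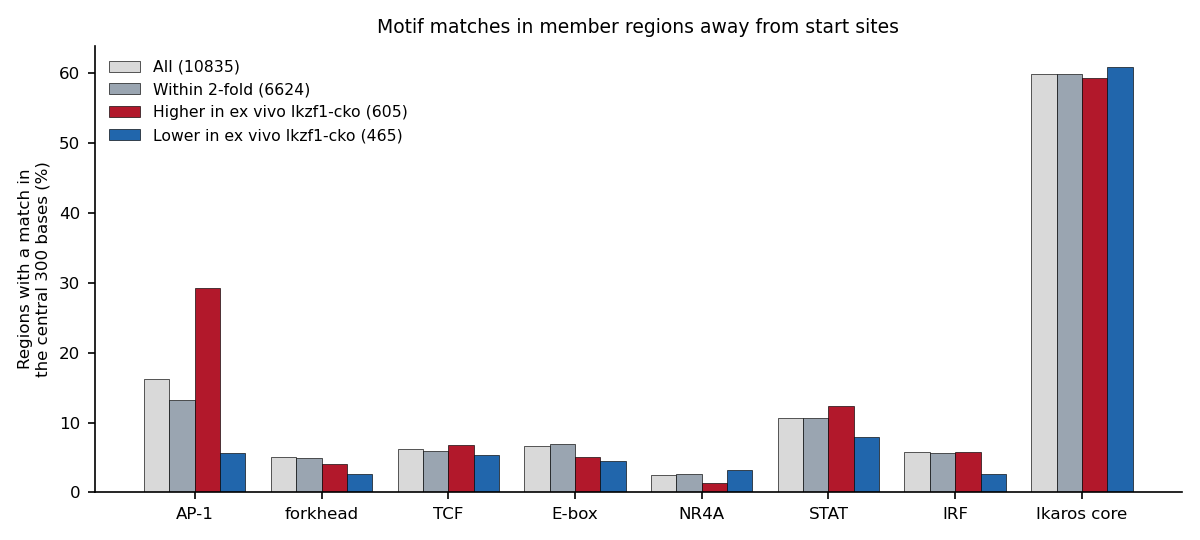
Share of member OCRs away from start sites (%, y axis) with a match on either strand in the central 300 bases, for 8 sequences (x axis), by class of the comparison. Higher and lower are classes that held under both scalings, with the number of OCRs in brackets. AP-1 matches were in 29.3% of the higher OCRs and 5.59% of the lower, and Ikaros core matches were near 60% in each class.

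The largest differences among members whose libraries did not overlap were mostly away from activation genes. The 5 largest rises were at 2 OCRs at Gm10222 on chromosome 1 (log2 fold changes 3.70 and 2.73), the Ctnnd1 start site (2.69), an OCR 10.9 kb from Gm15322 (2.61) and one 0.122 kb from Scin, an actin-severing protein (2.43). All 5 were members through ex vivo Ikzf1-cko alone. In the OCRs at Gm10222, 86.4% and 94.9% of 30-base words also occur in the mitochondrial genome, so their reads could be shared with it. The Scin OCR (chr12:40860937-40861618) had 40.6, 40.5 and 37.1 FPKM in ex vivo Ikzf1-cko, 14.1, 20 and 22.9 in ex vivo WT and 6.55, 7.23 and 8.23 in stimulated WT.

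The 5 largest falls were all members through stimulated WT alone. An intron of 4930554G24Rik (chr11:14042402-14043145), within 5 Mb of Ikzf1, had 20.9, 21.4 and 23.8 FPKM in ex vivo WT and 19.1, 15.5 and 20.1 in stimulated WT, against 0, 1 and 0 reads in the ex vivo Ikzf1-cko libraries and 0 in each stimulated Ikzf1-cko library. This OCR followed genotype and not stimulation, and its position near the floxed gene and the loss of Ikaros cannot be told apart. The other 4, an OCR on chromosome 10 near Speer5-ps1 (-4.18) and 3 on chromosome 5 near Gm10354 and Gm17019 (-3.69 to -3.89), had 0.516 to 2.17 FPKM in ex vivo Ikzf1-cko and 11.2 to 32.8 in stimulated WT. Of 29 members within 5 Mb of Ikzf1, 7 were higher and 7 lower. These were 24.1% each, against 9.12% and 3.39% of all members and 4.14% and 23.8% of all tested. With strong OCRs as the scaling, 2 were higher and 7 lower (6.9% and 24.1%, against 3.04% and 5.77% of all members). Both Ikzf1 start-site OCRs were within 2-fold, at 20, 19.8 and 18.2 FPKM in ex vivo Ikzf1-cko against 16.4, 18.7 and 16.9 for the first, and these levels do not show whether the floxed exon was deleted.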

How the data were processed

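ATAC-seq, in which Tn5 transposase cuts open chromatin, was measured in 12 libraries of 100000 Treg each, 3 per group. Per the study's methods, the authors used Bowtie2 for alignment, dropped duplicate reads, and merged MACS2 peaks seen in at least 2 replicates into 118680 OCRs. The labels name the build mm9, while the methods print a human build. The deposited table gives the count of de-duplicated reads per OCR and library, and the authors' FPKM, the count per kilobase of OCR and 1000000 counted reads. A deposited table of the authors' own fold changes and p-values was not used. The study's scaling on background bins needs reads and was replaced by library totals.

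Members and gene lists were chosen with earlier results of these data known. Counts of 69957 OCRs (a minimum of 3.6 CPM in 3 or more libraries) were fitted in 1 model with 4 group means by edgeR's quasi-likelihood test (edgeR 4.0.16, R 4.3.3), with Benjamini-Hochberg adjustment over all of them. Errors of log2 fold changes are SE of this fit. The fit was also run on simulated data. Named OCRs were the 5 largest differences in each direction whose libraries did not overlap, up to 5 per list called in stimulated Ikzf1-cko against ex vivo WT, the start site and most responsive member of genes the study names, and identity start sites. Others are said to have been chosen after their values were seen. Start sites came from the mm9 annotation. An OCR near several genes was given to the nearest, so its gene is a position and not a target. Totals ranged from 4808916 to 15355521 reads. Alternatives were TMM, loess and strong-OCR scaling, DESeq2 1.42.0, limma 3.58.1 with pseudocounts of 1 and 0.1, other filters and level rules, thinned counts, a replicate block and leaving out each library. Tables and plots were made with Python 3.11.15, pandas 2.3.3, NumPy 2.4.6 and Matplotlib 3.10.9.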

Additional observations from a re-analysis of the deposited data

How the results depend on the processing

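Counts of members depended on the scaling more than on the test. Opened and closed loci are counted here among the members only. With TMM, 3019 members were higher, 1420 of them among those passing in both groups, and DESeq2 gave 3015 and 1414. Under TMM 52 opened loci were higher and 57 within 2-fold, and 11 closed loci lower, and DESeq2 gave 55 higher and 11 lower. Loess against abundance gave 876 higher members, 204 higher and 201 lower among those passing in both groups, 7 lower opened loci, 42 higher closed loci, and 44 higher and 1 lower OCR at activation genes. Scaling on strong OCRs, which also changes which loci count as opened or closed, gave 665 higher and 1265 lower members, 226 and 218 among those passing in both groups, 13 higher opened loci, 45 higher and 77 lower closed loci, and 34 higher and 4 lower OCRs at activation genes. With limma and a pseudocount of 1, 20 opened loci were higher and 2 lower, and 8 closed loci lower. Requiring 3.6 CPM in all 12 libraries left 369 lower members, 2 lower opened and 8 lower closed loci, and thinned counts 1 lower opened locus.

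The level rule set the sizes of the sets. With 10 CPM in all 6 libraries, 836 members were higher and 66 lower, 6, 0 and 22 opened loci were higher, lower and within 2-fold, 28 and 0 closed loci higher and lower, and 29 activation OCRs higher. With 5 CPM, 5819 members were lower and 27258 within 2-fold, 60, 26 and 153 opened loci were higher, lower and within, 115 and 167 closed loci higher and lower, and 7 activation OCRs lower and 365 within. With 20 CPM these were 1106 higher, 125 lower and 9745 within for members, 10, 1 and 9 for opened loci, 42 higher and 1 lower for closed loci, and 44 higher and 126 within for activation OCRs. With no fold threshold, which also loosens the choice of loci, 12325 members were higher, 3347 lower and 6235 neither, 8867, 1746 and 5308 of those passing in both groups, 2635, 1271 and 2014 opened loci, 2817 and 518 closed loci higher and lower, and 267, 23 and 68 activation OCRs. Counting any OCR within 100 kb of an activation gene gave 118 higher, 3 lower and 578 within, and only those within 20 kb 49 higher.

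Leaving out each library gave 1775 to 2497 higher, 694 to 1257 lower and 15720 to 16734 members within 2-fold. Among those passing in both groups the ranges were 720 to 1050, 62 to 78 and 13253 to 13892. For opened loci they were 31 to 38, 3 to 7 and 36 to 39, for closed loci 70 to 87 higher and 15 to 43 lower, and for activation OCRs 68 to 92, 0 to 1 and 187 to 235.

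Same-numbered ex vivo Ikzf1-cko and stimulated WT libraries deviated from their group means with correlations of -0.091, 0.228 and 0.066. Being of different strains, they cannot share a mouse. Per the study's methods, sorted cells were divided between stimulation and none, so ex vivo and stimulated libraries of a genotype may be paired. Same-numbered ones gave 0.141, 0.132 and 0.082 in WT and -0.17, -0.07 and -0.182 in Ikzf1-cko. The main fit did not model such pairs, and the block counts here are for the main comparison. With the replicate number as a block, 2005 members were higher and 741 lower, and 77 activation OCRs higher and 0 lower.

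Among single OCRs the direction turned at start sites with small differences. The log2 fold change was -0.18 with loess and -0.14 on strong OCRs at Notch2, -0.21 and -0.23 at Il2ra, -0.06 and -0.02 at Irf4, and 0.02 with thinned counts at Foxp3. At Il2 it was -0.20 on strong OCRs and, leaving out each library, -0.02 (without ex vivo Ikzf1-cko replicate 1 or stimulated WT replicate 3) to 0.22. The cause of these changes was not tested. Stimulated WT libraries, at most 6047073 reads, limit the precision of weak OCRs.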
